A study of Homo sapiens with 18 samples.

Results

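Receptors for the neurotrophins, for the GDNF family ligands and for the ALK ligands were examined in SH-SY5Y, a widely used human neuroblastoma cell line of sympathoadrenal origin. The set was 9 genes taken by symbol from a table of 26372 gene symbols: NTRK2, NTRK3, NGFR, SORT1, RET, GFRA1, GFRA2, GFRA3 and ALK. Gene expression had been measured by rRNA-depleted RNA sequencing in 18 libraries, with 3 libraries in each of 6 groups. Each culture carried a lentivirus with 1 of 3 ZNHIT3 constructs, and no group without a construct was used here. ZNHIT3 is a zinc-finger protein that takes part in the assembly of box C/D small nucleolar ribonucleoproteins. The constructs were the wild-type sequence (WT), the C14R substitution and a deletion. The deletion was labelled ∆251-254 in replicate 1, ∆251-255 in replicate 2 and ∆251-256 in replicate 3 at both days, and the 3 are treated as 1 group here. Day 0 was the state before differentiation. Day 18 followed 18 days in serum-free medium to which BDNF (50 ng/ml), all-trans retinoic acid (10 μM), dibutyryl cyclic AMP (2 mM) and KCl (20 mM) had been added. BDNF is itself the ligand of NTRK2, so a receptor of the set was exposed to added ligand in all day 18 cultures and not by this medium at day 0. No culture received the medium without BDNF, so BDNF, the other additions, serum withdrawal and time cannot be told apart.

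Neurotrophins are secreted growth factors that support the survival and wiring of neurons. Each Trk receptor is a tyrosine kinase with preferred ligands: NTRK2 (TrkB) binds BDNF and NT-4, and NTRK3 (TrkC) binds NT-3. NGFR, also called p75NTR, binds all neurotrophins and has no kinase, and SORT1 (sortilin) is its partner for the unprocessed proneurotrophins and also a sorting receptor inside the cell. GDNF family ligands signal through RET, a tyrosine kinase that needs a co-receptor anchored in the membrane by a lipid: GFRA1 for GDNF, GFRA2 for neurturin and GFRA3 for artemin. ALK is a receptor tyrosine kinase of the developing sympathetic nervous system, activated by ALKAL1 and ALKAL2, and is an oncogene in neuroblastoma. SH-SY5Y is known to carry an activating ALK mutation, which a level of transcript does not show.

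The sequence upstream of a start site is shown for the 3 receptors with the largest rises from day 0 to day 18, because the day 18 medium held an activator of cyclic AMP signalling and a retinoid. RefSeq windows (GRCh38.p14) were matched by symbol for 7 of the 9 genes, with 16 start sites in all. The bases shown lie up to 250 before the start, on the strand of the gene, 5′ to 3′, and outside annotated exons. Capitals mark matches on either strand to AGGTCA (the hexamer bound by retinoid receptors), TGACG (the core of the cyclic AMP element TGACGTCA, with which it overlaps) or GGGCGG (a GC box). The NTRK2 stretch is chr9:84670099-84670348 (plus strand), 1 of 4 start sites and the one with matches to TGACG, the RET stretch is chr10:43076819-43077026 (plus strand) and the ALK stretch is chr2:29921587-29921836 (minus strand).
NTRK2: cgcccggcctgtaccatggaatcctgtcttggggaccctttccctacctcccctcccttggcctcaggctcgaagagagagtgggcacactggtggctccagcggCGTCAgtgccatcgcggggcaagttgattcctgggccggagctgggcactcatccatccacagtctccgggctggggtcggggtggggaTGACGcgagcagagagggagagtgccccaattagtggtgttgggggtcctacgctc
RET: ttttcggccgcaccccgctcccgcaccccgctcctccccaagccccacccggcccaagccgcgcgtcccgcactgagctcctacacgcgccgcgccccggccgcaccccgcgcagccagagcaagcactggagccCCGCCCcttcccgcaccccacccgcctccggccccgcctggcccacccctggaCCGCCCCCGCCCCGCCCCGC
ALK: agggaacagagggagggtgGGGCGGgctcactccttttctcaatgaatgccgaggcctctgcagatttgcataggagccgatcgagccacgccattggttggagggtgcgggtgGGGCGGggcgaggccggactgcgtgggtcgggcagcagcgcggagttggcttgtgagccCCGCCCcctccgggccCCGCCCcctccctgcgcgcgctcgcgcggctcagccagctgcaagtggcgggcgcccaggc
The NTRK2 stretch held 2 matches to TGACG and was chosen for them, and the windows of its 3 other start sites held 0. Of 35116 RefSeq windows of the same 250 bases, 21.2% hold this motif, and nothing is read from the comparison. RET and ALK have 2 start sites each in the table, and the one shown is that next to the start of the annotated gene. These stretches held 4 matches each to GGGCGG, found in 42.6% of the windows, and the window of the other start site held 1 in RET and 0 in ALK. The last capitals of the RET stretch begin a further match that runs into the exon and is not counted here. AGGTCA, found in 12.1% of all windows, matched none of the 3 stretches shown. Among windows not shown, a SORT1 window held 1 match to AGGTCA and a GFRA1 window held 1 match to TGACG. Direct repeats of AGGTCA spaced by 2 or by 5 bases, each in 0.0028% of windows, and the full TGACGTCA, in 1.65%, matched in none of the 16 windows of the set. These matches describe letters only, and binding was not measured.

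Levels are given in FPKM (counts of fragments divided by transcript length and by library size), which allows genes to be compared per length. The depth estimated from the smallest steps between values was 11.4 to 16.3 M fragments (M for mega) at day 0 and 15.8 to 19.2 M at day 18. SNORD3A, the gene of the U3 small nucleolar RNA, took 6.87% to 58.6% of the summed FPKM in the day 0 libraries, with over 50% in WT replicate 1, C14R replicates 1 and 3 and deletion replicate 1, and 1.01% to 15.1% at day 18. ZNHIT3, measured from the construct and the cell's own gene together, was at 530.6 to 542.0 FPKM in the WT libraries, 418.9 to 432.0 in C14R and 292.0 to 310.1 in the deletion at day 0. At day 18 it was at 1103 to 1193 FPKM, 599.7 to 755.8 and 294.3 to 312.8 in the same order. The cells kept the sympathoadrenal factor HAND2, at a mean of 277.7 FPKM in WT at day 0 and 273.0 at day 18. C14R replicate 1 at day 18 stood apart from the other libraries on the second principal component, at 24.8 where the other 17 lay between -8.27 and 9.27, and results that rest on it are given with and without it. Differences were tested on log2(FPKM + 1) with limma over the 13785 genes with a mean of at least 1 FPKM. P-values were adjusted over all of these genes by the Benjamini-Hochberg method, and a gene was called at an adjusted p under 0.05. In the set, 8 of 9 genes passed this filter, and GFRA1, with a mean of 0.793 FPKM, did not. The labels do not say whether the replicates were separate cultures, so p-values measure the spread between these libraries, which may be technical.

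Before differentiation RET was the most abundant receptor of the set and stayed so at day 18. In WT at day 0 the mean levels ran from RET (83.1 FPKM) through ALK (35.4), SORT1 (20.2), GFRA2 (11.1), NGFR (7.90), NTRK2 (7.08), NTRK3 (2.04) and GFRA3 (1.66) to GFRA1 (1.02). The libraries of NGFR and NTRK2 overlapped in this order, as did those of NTRK3 with GFRA3 and of GFRA3 with GFRA1, so those neighbours did not differ beyond their spread. At day 18 the order in WT was RET (331.8 FPKM), NTRK2 (83.1), ALK (72.6), SORT1 (29.3), GFRA2 (9.34), NGFR (8.07), GFRA3 (1.92), NTRK3 (0.851) and GFRA1 (0.520), with no overlap between neighbours. NTRK2 moved from sixth place to the second.

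**Figure D1:**
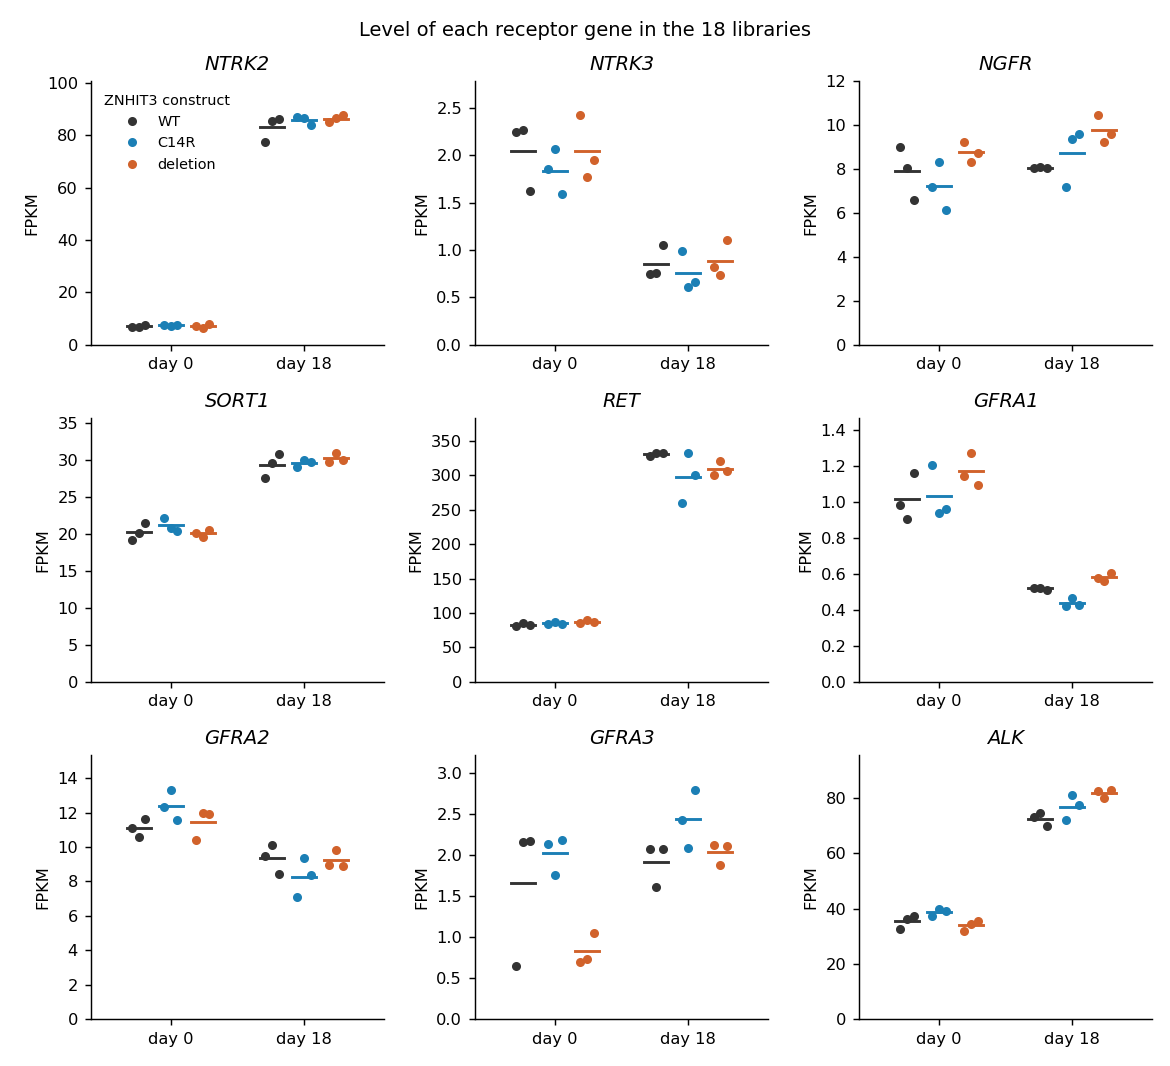
FPKM of the 9 receptor genes (linear vertical axes from 0, each gene with its own scale) in every library at day 0 and day 18, with points for the 3 libraries of a group, a bar for their mean, and colours for the WT, C14R and deletion constructs. NTRK2, RET, ALK and SORT1 are higher at day 18 in every library, and NTRK3, GFRA1 and, by a small margin, GFRA2 are lower. The GFRA3 points at day 0 lie between 0.645 and 2.18 FPKM.

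Between day 0 and day 18, transcripts of the BDNF receptor NTRK2, of RET, of ALK and of SORT1 rose in all 3 constructs. Transcripts of the NT-3 receptor NTRK3 and of the neurturin co-receptor GFRA2 fell in all 3. Some refits lost the GFRA2 call in WT or the deletion. GFRA1, below the filter, was also lower at day 18 in all 3. The rise was 11.6-fold to 12.1-fold for NTRK2, 3.5-fold to 4.0-fold for RET, 2.0-fold to 2.4-fold for ALK and 1.4-fold to 1.5-fold for SORT1, as ratios of group means. NGFR was called in none of the 3 constructs. Of the 8 genes tested, 6 were called in WT, where 72.2% of all tested genes were called. The count was 6 in C14R against 72.9% of all genes and 7 in the deletion against 73%. These shares are near the background, so nothing is read from the number of genes called. A change of at least 1 on the log2 scale was called for 3 of the 8 in WT (NTRK2, RET and ALK), against 14.1% of all genes, for NTRK2 and RET in C14R against 13.9%, and for 3 in the deletion (NTRK2, RET and ALK) against 14.4%. The libraries of the days did not overlap for 6 of the 8 in WT, where this held for 75.7% of all genes, for 6 in C14R against 71.8% and for 8 in the deletion against 77.7%. The median change over the 8 genes was 0.35 in WT, 0.35 in C14R and 0.65 in the deletion, and over all tested genes it was 0.03, 0.02 and 0.03. In these bulk samples, fewer cells of a type and less RNA per cell cannot be told apart.

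Among the neurotrophin receptors, NTRK2 had the largest change. Its 3 WT libraries were at 6.76, 6.84 and 7.64 FPKM at day 0 and at 77.3, 85.5 and 86.3 at day 18. The C14R libraries were at 7.59, 7.09 and 7.56 FPKM and then at 87.1, 86.7 and 84.0, and the deletion libraries at 7.17, 6.37 and 7.88 FPKM and then at 85.0, 86.6 and 87.6. All day 18 libraries lay above all day 0 libraries, and the 3 constructs overlapped within each day. The log2 change was 3.38 in WT (SE 0.06, adjusted p = 1.8e-17), 3.37 in C14R (SE 0.06, adjusted p = 1.7e-17) and 3.43 in the deletion (SE 0.06, adjusted p = 1.2e-17). In WT, NTRK2 was above 38.6% of the tested genes at day 0 and above 95.4% at day 18. NTRK2 is transcribed from chromosome 9 (84668551 to 85027070 in GRCh38, plus strand, GENCODE v29) into forms with and without the kinase domain. The values are 1 per gene, so the form that rose was not measured.

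NTRK3, the kinase receptor of NT-3, went the other way from a low level. It was at 2.24, 2.27 and 1.62 FPKM in WT at day 0 and at 0.744, 0.759 and 1.05 at day 18, without overlap. It was between 1.59 and 2.42 FPKM in the other day 0 libraries and between 0.611 and 1.10 in the other day 18 libraries. The log2 change was -0.71 in WT (SE 0.12, adjusted p = 6.0e-05), -0.70 in C14R and -0.69 in the deletion, on a scale where differences between low values come out smaller. NTRK3 (chromosome 15, 87859751 to 88256768, minus strand) overlaps the antisense gene NTRK3-AS1, and use of strand in counting is not given in the sources used here.

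NGFR, the receptor shared by all neurotrophins, stayed between 6.15 and 10.4 FPKM in all 18 libraries. In WT it was at 9.03, 8.06 and 6.60 FPKM at day 0 and at 8.05, 8.08 and 8.07 at day 18, so the day 18 libraries lay within the day 0 spread. The log2 change was 0.04 in WT (95% interval -0.20 to 0.27, adjusted p = 0.77), 0.24 in C14R (0.01 to 0.47, adjusted p = 0.059) and 0.14 in the deletion (-0.09 to 0.37, adjusted p = 0.26). The C14R change was 0.36 and called (adjusted p = 0.0061) without C14R replicate 1 at day 18, the library that stood apart. It was also called, at 0.24, without WT replicate 1 (adjusted p = 0.049) or WT replicate 3 (adjusted p = 0.040) of day 0 and, at 0.34, without C14R replicate 2 of day 0 (adjusted p = 0.016). With small RNA genes left out and each library rescaled, it was 0.41 in C14R and 0.34 in the deletion, both called, in a fit where the median of all genes moved to 0.18 and 0.23. NGFR (chromosome 17, 49495293 to 49515017, plus strand) is overlapped on the other strand by AC006487.1, an antisense gene.

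SORT1, the partner of NGFR for proneurotrophins, rose in all 3 constructs by a smaller amount. Its WT libraries were at 19.2, 20.0 and 21.5 FPKM at day 0 and at 27.5, 29.5 and 30.8 at day 18. The C14R and deletion libraries were between 19.6 and 22.2 FPKM and then between 29.02 and 30.97. No day 18 library overlapped a day 0 library. The log2 change was 0.51 in WT (SE 0.05, adjusted p = 5.1e-08), 0.47 in C14R and 0.57 in the deletion.

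RET, the kinase of the GDNF family, had the highest level and the second largest change of the set. In WT it was at 81.3, 85.0 and 83.1 FPKM at day 0 and at 328.9, 333.3 and 333.3 at day 18. In C14R it was at 84.0, 86.6 and 84.3 FPKM and then at 259.4, 332.2 and 301.3, and in the deletion at 85.1, 89.4 and 86.8 FPKM and then at 300.0, 321.5 and 306.7. The days did not overlap in any construct, and the lowest day 18 library was C14R replicate 1. Differences between the days were 1.98 on the log2 scale in WT (SE 0.06, adjusted p = 1.1e-14), 1.79 in C14R (adjusted p = 4.4e-14) and 1.82 in the deletion (adjusted p = 3.4e-14). Without C14R replicate 1 of day 18 the C14R change was 1.88. RET lies on chromosome 10 (43077027 to 43130351, plus strand), and in WT it was above 94.9% of tested genes at day 0 and above 99.0% at day 18.

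Of the GFRA co-receptors of RET, GFRA2 fell in all 3 constructs, as did GFRA1, which was below the filter. GFRA2, the neurturin co-receptor and the most abundant of the 3, was at 11.1, 10.6 and 11.6 FPKM in WT at day 0 and at 9.51, 10.1 and 8.41 at day 18. It was at 12.3, 13.3 and 11.6 FPKM in C14R at day 0 and at 7.11, 9.36 and 8.37 at day 18. In the deletion it was at 10.4, 12.0 and 11.9 FPKM and then at 8.98, 9.83 and 8.89. The days did not overlap in any of the 3 constructs. On the log2 scale the change was -0.23 in WT (SE 0.09, adjusted p = 0.025), -0.54 in C14R (adjusted p = 2.7e-05) and -0.28 in the deletion (adjusted p = 0.0075). Without C14R replicate 1 of day 18 the C14R change was -0.44 and stayed called. The WT call was lost without WT replicate 1 of day 0 (-0.23, adjusted p = 0.054), without WT replicate 3 of day 0 (-0.20, adjusted p = 0.085) and without WT replicate 3 of day 18 (-0.16, adjusted p = 0.13). With small RNA genes left out and libraries rescaled, GFRA2 was at -0.04 in WT (adjusted p = 0.70) and -0.08 in the deletion (adjusted p = 0.41), against a median of all genes of 0.21 and 0.23 in that fit, and C14R stayed called at -0.37.

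GFRA1, the co-receptor of GDNF, was near 1 FPKM at day 0 and near 0.5 at day 18. It was at 0.985, 0.903 and 1.16 FPKM in WT at day 0 and at 0.524, 0.523 and 0.512 at day 18. In the other constructs it lay between 0.939 and 1.27 FPKM at day 0 and between 0.420 and 0.607 at day 18, so the days did not overlap. In the fit without a filter on low values, the log2 change was -0.41 in WT (adjusted p = 2.2e-05), -0.50 in C14R (adjusted p = 2.4e-06) and -0.46 in the deletion (adjusted p = 6.5e-06).

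GFRA3, the artemin co-receptor, had the widest spread of a single group relative to its mean, in WT at day 0, where 1 library was low. In WT it was at 0.645, 2.16 and 2.17 FPKM at day 0 and at 2.07, 1.61 and 2.08 at day 18. In C14R it was at 2.14, 1.76 and 2.18 FPKM and then at 2.42, 2.09 and 2.80, and in the deletion at 0.700, 0.728 and 1.05 FPKM and then at 2.12, 1.88 and 2.11. The 3 deletion libraries and WT replicate 1 were low at day 0, and all day 18 libraries were at 1.61 FPKM or more. By the estimated depth, the 3 WT values at day 0 corresponded to about 17.8, 62.2 and 65.9 fragments and the deletion values to 21.1, 16.9 and 32.6. The log2 change was 0.20 in WT (adjusted p = 0.35), 0.18 in C14R (adjusted p = 0.39) and 0.74 in the deletion (SE 0.18, adjusted p = 0.0018). The difference between the deletion and WT changes was 0.54 (95% interval -0.01 to 1.09, adjusted p = 0.69), so the change was not shown to be particular to the deletion.

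ALK rose in all 3 constructs from the second highest level of the set at day 0. It was at 32.5, 36.4 and 37.2 FPKM in WT at day 0 and at 73.1, 74.8 and 69.9 at day 18. In C14R it was at 37.3, 39.9 and 39.2 FPKM and then at 72.3, 81.0 and 77.7, and in the deletion at 32.0, 34.3 and 35.6 FPKM and then at 82.8, 80.1 and 83.1. No day 18 library overlapped a day 0 library. Its change was 1.02 on the log2 scale in WT (SE 0.05, adjusted p = 2.1e-11), 0.97 in C14R (adjusted p = 4.2e-11) and 1.25 in the deletion (adjusted p = 1.2e-12). ALK (chromosome 2, 29192774 to 29921566, minus strand) overlaps the antisense genes AC106870.1 and AC106870.2.

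**Figure D2:**
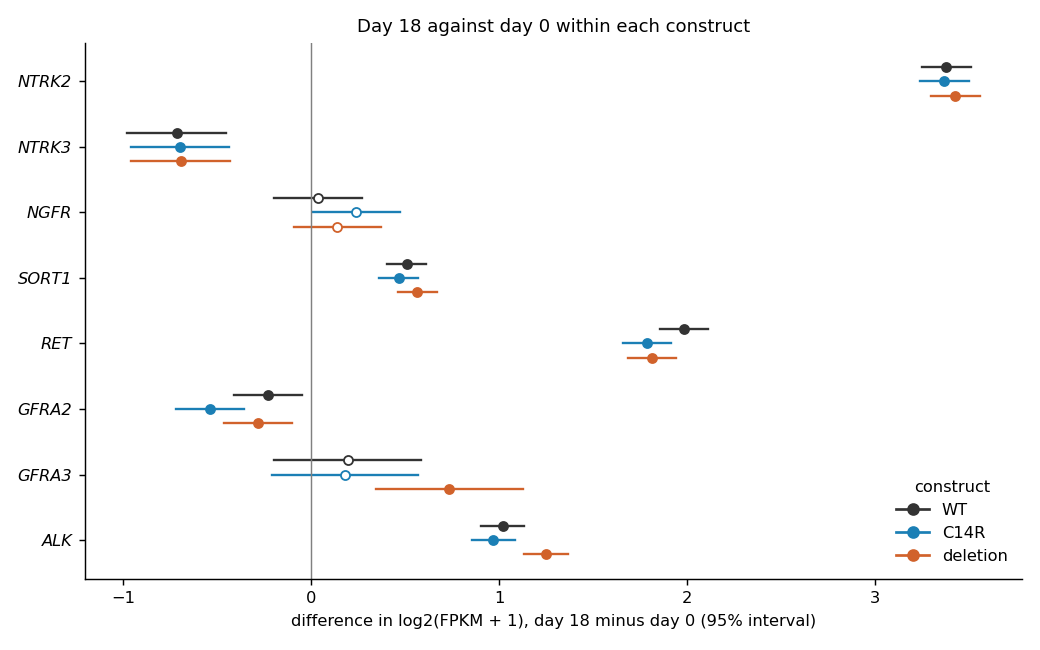
Difference in log2(FPKM + 1) between day 18 and day 0 for the 8 receptor genes that passed the filter, with 95% intervals from limma and colours for the 3 constructs; filled points had an adjusted p under 0.05. NTRK2 lies at 3.37 to 3.43 and RET at 1.79 to 1.98 in the 3 constructs, NTRK3 at -0.71 to -0.69, and NGFR is open in all 3.

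Ratios of genes within a library do not depend on how libraries were scaled to each other. The ratio of NTRK2 to NTRK3 was 2.96 to 4.75 at day 0 and 79.5 to 142.1 at day 18. NTRK2 and NGFR were close at day 0, at a ratio of 0.749 to 1.23, and apart at day 18, at 8.13 to 12.1. RET was at 5.36 to 6.94 times the sum of GFRA1, GFRA2 and GFRA3 at day 0 and at 25.7 to 30.3 times it at day 18. ALK was at 0.376 to 0.465 of RET at day 0 and at 0.210 to 0.279 at day 18. In these 4 ratios the day 0 and day 18 libraries did not overlap. SORT1 was at 2.13 to 3.26 times NGFR in WT and at 2.18 to 2.35 times in the deletion at day 0, and at 3.42 to 3.82 and 2.85 to 3.35 times at day 18, without overlap within either construct. In C14R the ratio was 2.50 to 3.32 and then 3.09 to 4.04, with overlap. GFRA2 made up a lower fraction of the GFRA sum at day 18 in C14R (0.7864 to 0.8316, then 0.7144 to 0.7858) and in the deletion (0.848 to 0.857, then 0.766 to 0.801), where the days did not overlap, while in WT they overlapped (0.775 to 0.872, then 0.765 to 0.825). The 12.1, 0.279, 4.04 and 0.7144 at day 18 each came from C14R replicate 1, the library that stood apart.

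**Figure D3:**
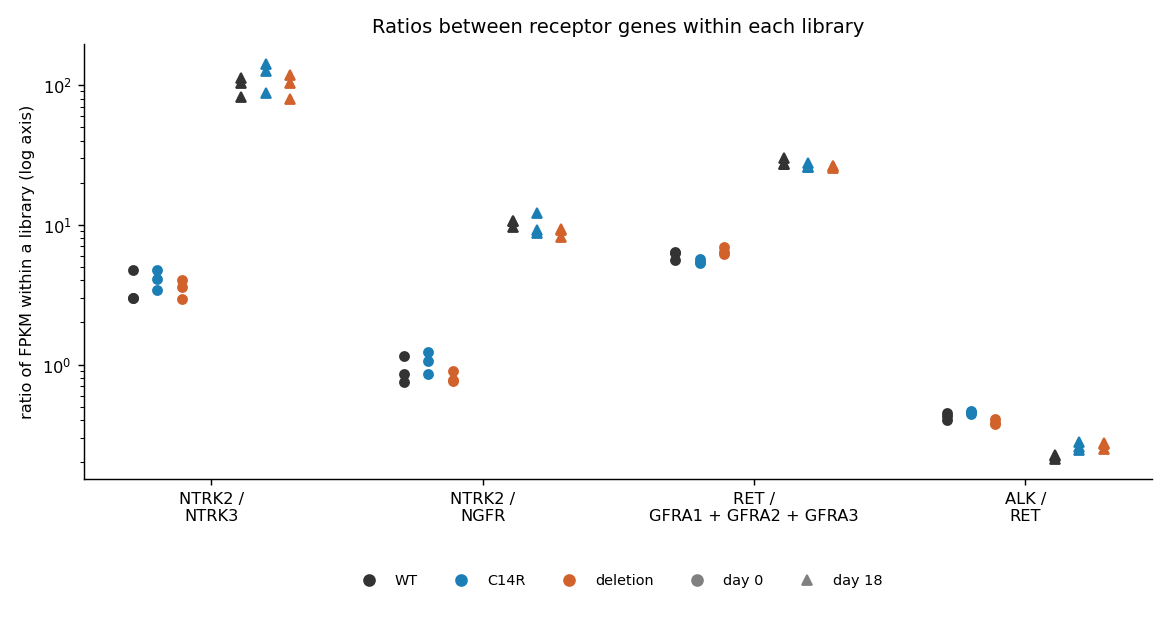
Ratios of FPKM between receptor genes within each of the 18 libraries (log axis), with circles for day 0, triangles for day 18 and colours for the constructs. The ratio of NTRK2 to NTRK3 is at most 4.75 in the day 0 libraries and at least 79.5 at day 18, and of the 4 ratios plotted only ALK to RET is lower at day 18.

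The ZNHIT3 constructs were then compared within each day. None of the 8 receptors tested was called for C14R or the deletion against WT at day 0 or at day 18, for C14R against the deletion at either day, or for the difference in the day change. Few genes of any kind were called in these comparisons in the main fit. Of all tested genes, 0% were called for C14R against WT at day 0, 0.029% for the deletion against WT at day 0, 0.0363% for C14R at day 18 and 0.0725% for the deletion at day 18. For C14R against the deletion, 0.058% were called at day 0 and 0.029% at day 18. For the difference in day change against WT, 0% were called in C14R and 0.0145% in the deletion. These numbers depended on the fit. With array weights, 205 genes (5 in the main fit) were called for C14R against WT at day 18. The deletion against WT at day 18 then had 95 (10), and C14R against the deletion at day 0 had 95 (8). Without C14R replicate 2 of day 18, C14R against WT at day 18 had 126. Without C14R replicate 1 of day 18, the deletion against WT at day 18 had 51. At an unadjusted limma p under 0.05, C14R against WT at day 0 had 1 of the 8 receptors (ALK) and 2.81% of all genes, and the deletion had 1 (GFRA3) and 6.22%. At day 18 the numbers were 1 (RET) and 11.1% for C14R, and 2 (NGFR and ALK) and 11.4% for the deletion. For C14R against the deletion they were 3 (NGFR, GFRA3 and ALK) and 9.84% at day 0, and 0 and 11.2% at day 18. For the difference in day change they were 2 (RET and GFRA2) and 5.73% in C14R, and 1 (ALK) and 7.36% in the deletion. The C14R difference in day change was -0.20 for RET and -0.10 without C14R replicate 1 of day 18 (adjusted p = 0.85 and 0.68). The comparisons with WT at 1 day share the same WT libraries.

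For NTRK2 the comparisons with WT gave 95% intervals within -0.13 and 0.20 on the log2 scale at both days: the differences were 0.06 in C14R (-0.07 to 0.19) and 0.01 in the deletion (-0.12 to 0.14) at day 0, and 0.05 (-0.08 to 0.18) and 0.06 (-0.07 to 0.19) at day 18. SORT1 differed from WT by -0.01 to 0.06. NTRK3, at its low level, had wider intervals: its difference from WT at day 18 was -0.08 in C14R (-0.34 to 0.18) and 0.02 in the deletion (-0.24 to 0.29). A p that misses the threshold does not show that the constructs gave the same level, and these intervals are the sizes the libraries allow.

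RET at day 18 was 0.16 lower in C14R than in WT on the log2 scale (95% interval -0.29 to -0.04, adjusted p = 0.32) and 0.10 lower in the deletion (-0.23 to 0.03, adjusted p = 0.56). The 3 deletion libraries, at up to 321.5 FPKM, lay below the WT libraries, the lowest of which was at 328.9, while C14R overlapped WT. Non-overlap between the deletion and WT at day 18 was found for 3 of the 8 receptors and 18.9% of all genes. Without C14R replicate 1 of day 18, the library that stood apart, the C14R difference was -0.07 (adjusted p = 0.52). Without C14R replicate 2, the highest of the 3, it was -0.25 and called (adjusted p = 0.037).

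ALK at day 18 was 0.17 higher in the deletion than in WT (0.06 to 0.29, adjusted p = 0.25), with all 3 deletion libraries at 80.1 FPKM or more and all 3 WT libraries at 74.8 or less. At day 0 the deletion was 0.06 lower than WT (-0.17 to 0.06, adjusted p = 0.87). The day change in the deletion exceeded that in WT by 0.23 (0.07 to 0.39), at an unadjusted p = 0.0087 and an adjusted p = 0.49 by limma, so it did not pass over all genes. C14R at day 0 was 0.13 higher than WT (0.02 to 0.25, adjusted p = 1). NGFR at day 18 was 0.25 higher in the deletion (0.01 to 0.48, adjusted p = 0.41), also without overlap.

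GFRA3 at day 0 was 0.48 lower in the deletion than in WT (-0.87 to -0.09, adjusted p = 0.77). It was 0.73 higher in C14R than in the deletion (0.34 to 1.12, adjusted p = 0.21). C14R and the deletion did not overlap, as was the case for 3 of the 8 receptors and 21.3% of all genes, whereas WT replicate 1 lay below all 3 deletion libraries. Without WT replicate 1 of day 0, the deletion against WT was at -0.80 and called (adjusted p = 0.019), and C14R against the deletion was called at 0.73 (adjusted p = 0.0092). For GFRA2 the day change in C14R differed from that in WT by -0.31 (-0.57 to -0.05, adjusted p = 0.82), which did not pass, and by -0.21 without C14R replicate 1 of day 18 (adjusted p = 0.66).

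**Figure D4:**
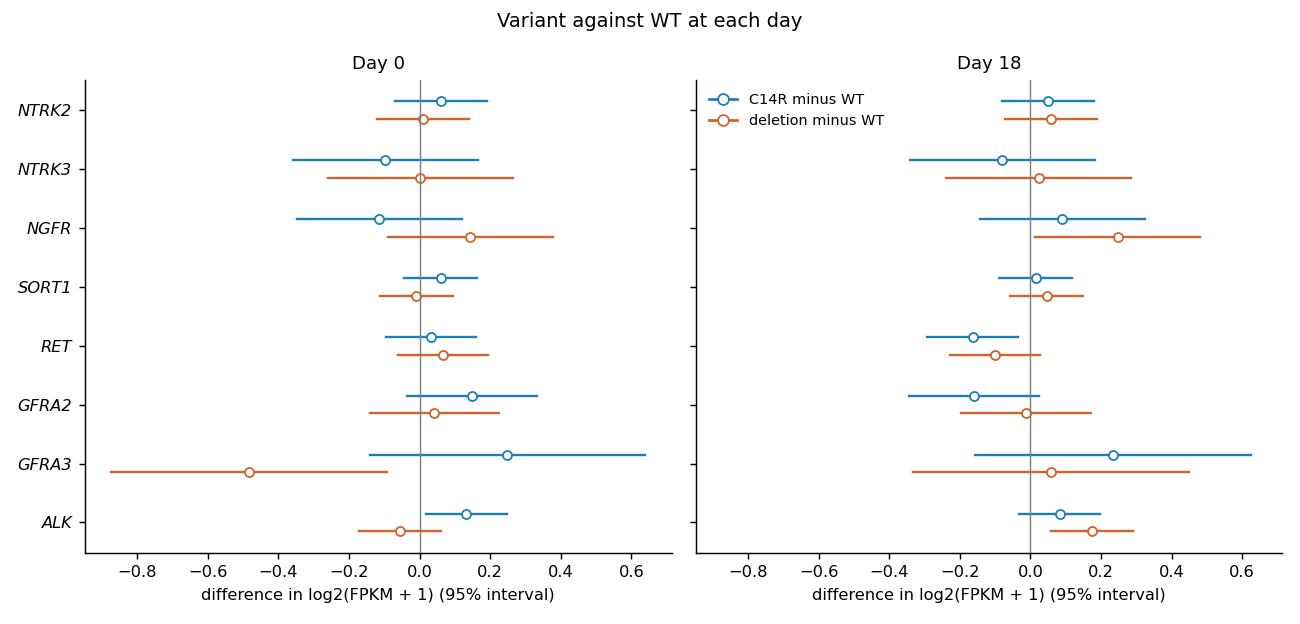
Difference in log2(FPKM + 1) from WT for C14R (blue) and the deletion (orange) at day 0 (left) and day 18 (right), with 95% intervals from limma for the 8 receptor genes that passed the filter. All points are open, as no adjusted p was under 0.05, and the widest intervals are those of GFRA3.

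The ligands of these receptors were mostly at low levels in the same libraries, apart from the heparin-binding growth factors midkine and pleiotrophin. Of 11 listed ligands, 4 passed the filter. MDK (midkine), a proposed ALK ligand, rose from 407.3 FPKM in WT at day 0 to 799.6 at day 18 (log2 change 0.97, SE 0.05). PTN (pleiotrophin) fell from 80.3 to 43.2 FPKM (-0.88, SE 0.07). BDNF transcript, distinct from the BDNF protein added to the medium, rose from 2.75 to 4.43 FPKM in WT (0.54, SE 0.10). NRTN (neurturin) was called in the deletion (0.56, SE 0.16) and not in the other constructs, and its difference between constructs passed no test of the difference itself. In all, 2 ligands rose and 1 fell in WT, 2 rose and 1 fell in C14R, and 3 rose and 1 fell in the deletion, of 4 tested, where 72.2%, 72.9% and 73% of all tested genes were called. GDNF was at 0.139 to 0.284 FPKM in WT at day 0 and at 0.0140 to 0.0817 at day 18. ALKAL2, the ALK ligand, was at 0.536 to 1.16 and then at 0.429 to 0.703 FPKM, and ALKAL1 was at 0.109 FPKM or less in all 18. The ligands NTF3, NTF4, ARTN and PSPN stayed under the filter, at no more than 0.176, 0.547, 0.441 and 0.677 FPKM in any library.

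Of 12 other receptors and co-receptors of these families, 6 were tested, with 5 higher and 1 lower in WT, 5 and 0 in C14R, and 4 and 0 in the deletion. For comparison, 38.2% of all tested genes were higher and 34% lower in WT, 37.9% and 35% in C14R, and 38.6% and 34.4% in the deletion. SORL1, a sorting receptor of the sortilin family, rose from 5.05 to 30.2 FPKM in WT (log2 change 2.36, SE 0.05), more than SORT1. NCAM1, an alternative GDNF receptor, rose from 62.0 to 95.3 FPKM (0.61, SE 0.03), and SDC3 (syndecan-3), which binds GDNF, from 14.04 to 23.8 (0.72, SE 0.06). LINGO1, a partner of NGFR in the Nogo receptor complex, rose from 1.53 to 4.12 FPKM (1.02, SE 0.09). PTPRZ1, the receptor phosphatase bound by pleiotrophin, was listed at 0 in all libraries. RTN4R, the Nogo receptor, was called in WT (0.43, SE 0.16), and SORCS1, a sortilin relative, fell in WT by 0.10 (SE 0.04). LTK, the kinase most like ALK, was under the filter at 0.353 to 1.49 FPKM over all libraries, as were SORCS2 (0.335 to 0.909) and SORCS3 (0.0849 to 1.59). GFRA4, the persephin co-receptor, and GFRAL, the GDF15 receptor, were at no more than 0.0550 and 0.0904 FPKM.

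Among 30 adaptor and proximal signalling genes, 28 were tested. Of these, 16 rose and 7 fell in WT, 16 and 7 in C14R, and 17 and 8 in the deletion, with a median change of 0.36, 0.32 and 0.34, where the median of all tested genes was 0.03, 0.02 and 0.03. Of all tested genes, 38.2% were higher and 34% lower in WT, 37.9% and 35% in C14R, and 38.6% and 34.4% in the deletion. SHC2 and SHC4, Shc adaptors, rose in WT, from 5.67 to 13.6 FPKM (1.12, SE 0.11) and from 0.708 to 2.76 FPKM (1.14, SE 0.13). GAB2, a docking protein, rose from 29.04 to 60.7 FPKM (1.04, SE 0.04). DOK4, a docking protein that binds RET, fell from 51.0 to 10.5 FPKM (-2.17, SE 0.07).

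Genes of MAPK feedback and the ETV factors, which follow ERK signalling in many cells, were called in both directions. Of 16 tested, 8 rose and 5 fell in WT, 8 and 6 in C14R, and 7 and 7 in the deletion, with a median of 0.09, 0.08 and 0.03, beside the same shares of all genes (38.2% higher and 34% lower in WT). ETV1, an ETS factor, rose from 9.20 to 43.0 FPKM in WT (2.11). DUSP6, an ERK phosphatase, rose from 22.1 to 81.9 FPKM (1.85, SE 0.06). VGF, a secreted neuropeptide precursor inducible by neurotrophins, rose from 101.9 to 370.5 FPKM (1.85, SE 0.11). SPRY2, a Sprouty inhibitor of receptor tyrosine kinase signalling, fell from 27.4 to 6.20 FPKM (-1.98, SE 0.11). None of the genes of these 4 lists was called for C14R or the deletion against WT at either day.

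**Figure D5:**
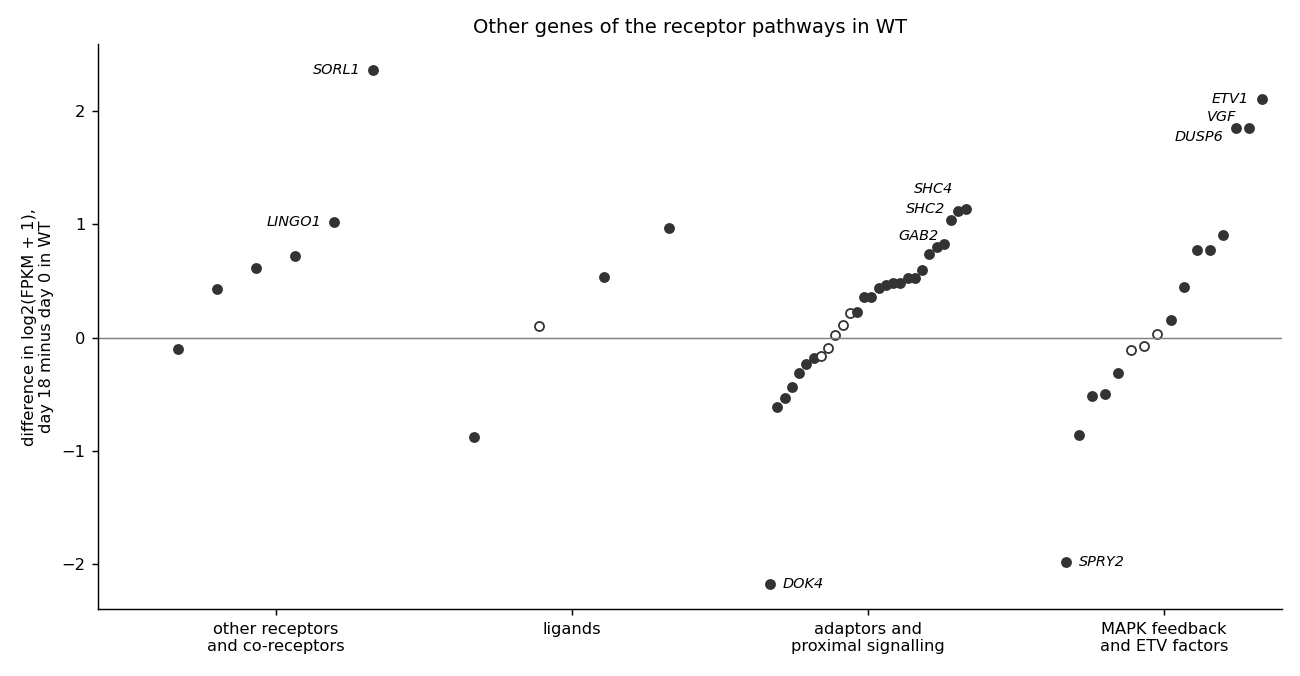
Difference in log2(FPKM + 1) between day 18 and day 0 in WT for the tested genes of 4 lists, ordered by value within each list, with filled points for an adjusted p under 0.05 by limma and names for those called with a change of at least 1 in size. SORL1 (2.36), ETV1 (2.11), SPRY2 (-1.98) and DOK4 (-2.17) lie farthest from 0.

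Markers of other cell states moved with day in the same libraries. Of all tested genes, 38.2% were called higher and 34% lower in WT, 37.9% and 35% in C14R, and 38.6% and 34.4% in the deletion. All 9 tested markers of mesenchymal-type neuroblastoma cells fell in each construct, and the summed level of the 10 listed genes went from 714.1 to 882.2 FPKM at day 0 to 87.4 to 95.6 at day 18. PRRX1, a defining factor of that state, was listed at 0 in each of the 3 WT libraries at day 18. Between constructs, 1 of the 9 was called lower in the deletion than in WT at day 18, against 0.0725% of all genes called. At day 0, 1 was called lower in C14R than in the deletion, against 0.058%. All 10 neuronal markers rose in each construct, with summed levels of 1060 to 1099 FPKM at day 0 and 2303 to 2504 at day 18. Of 9 tested adrenergic markers, 2 rose and 5 fell in WT, and the sum of the 10 listed went from 830.6 to 880.7 FPKM at day 0 to 1012 to 1197 at day 18. For Schwann cells and glia, 3 of 7 markers were tested, with 2 higher and 1 lower in WT, and the sums of 32.0 to 41.7 and 35.1 to 40.7 FPKM overlapped between days; SOX10, the defining factor of that lineage, was at 0.146 to 0.419 FPKM in the WT libraries. The part of these shifts in the receptor changes was not tested.

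The genes most like each receptor over the 18 libraries were ranked by the root mean square difference of their log2 values after each gene's own mean was removed. For NTRK2 the nearest gene was DNER, at 0.085 against a spread of 1.70 for NTRK2 itself, with means of 1.81 FPKM at day 0 and 27.6 at day 18. The next was ARHGAP42 (0.099), with means of 0.151 FPKM at day 0 and 11.8 at day 18. For RET the nearest were DUSP6 (0.078) and SPINK5 (0.079), against a spread of 0.94. DUSP6 went from a mean of 21.9 FPKM at day 0 to 78.6 at day 18, and SPINK5 from 0.016 to 2.86. On log2(FPKM + 1) differences between low values come out smaller, so a small distance to ARHGAP42 or SPINK5 is not a like fold change. For ALK they were DPYSL5 (0.057) and UNC13A (0.060), against 0.55, and DPYSL5 had means of 31.5 and 71.1 FPKM. SORT1 was nearest to WDFY3 and MGAT5 (both 0.044 against 0.26), and NTRK3 to VAV2 and GRPEL1 (both 0.11 against 0.37). GFRA2 was nearest to RPTOR (0.075) and SLC6A8 (0.080), against 0.21, and NGFR to MBOAT7 (0.070) and MRPL49 (0.093), against 0.17. GFRA3 had the loosest match of the 8, with ZNF177 and LOC101928865 (both 0.22 against 0.36). These likenesses describe 18 libraries that fall into 2 days, and they were not tested.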

How the data were processed

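The 18 libraries were made from total RNA extracted with TRIzol, after rRNA depletion with Ribo-Zero, with the NEBNext Ultra kit, per the labels' protocols. TopHat2, STAR, Cufflinks 2.2.1 and the build hg38 are named in the submitters' processing notes, with no role for each. The authors deposited 1 table of FPKM per gene symbol; the unit comes from the table's name, and use of strand and annotation are not given in the sources used here. Each of its columns matched 1 sample title, and 0 columns of values lacked a sample. Groups and replicate numbers came from the titles, in which the deletion group is named Depleted.

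The table held 26372 symbols, 4960 of them at 0 in all libraries. Values were tested as log2(FPKM + 1) with limma 3.58.1 in R 4.3.3: 1 fit of 6 group means with a mean-variance trend over 13785 genes with a mean of at least 1 FPKM, and Benjamini-Hochberg adjustment in each of 11 comparisons at 0.05. The pipeline was tested on simulated data. This scale understates differences between low values. Depth was estimated from steps of single fragments in 1202 genes with 1 annotated transcript of at least 2000 bases, where 70.9% to 84.6% of low values at day 0 lay within 0.15 of a whole fragment. Coordinates are from GENCODE v29 and promoter windows from RefSeq.

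The receptors, the lists and the tests were chosen with earlier results of these data known. The genes named were the 9 receptors, the 2 genes nearest each tested receptor by pattern, all listed ligands and related receptors, and the genes of the signalling lists called with a log2 change of at least 1 in WT; ZNHIT3, SNORD3A, HAND2, PRRX1 and SOX10 were named besides. Some listed genes are not reported here. Alternatives were another pseudocount, other filters, scalings and variance models, a replicate block, a minimum fold change, and each library left out in turn.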

Additional observations from a re-analysis of the deposited data

How the results depend on the processing

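Over 88 receptor values in 11 comparisons, 2427 of 2442 refits kept the side of the threshold, 5 lost a call, 10 gained one and 0 reversed a called direction. Of the 2427, 63 changed the sign of a difference that was not called in either fit, and 2364 kept side and sign. Over the counts of receptors called, 313 of 319 refits stayed within 1.5 times the main count. With a log2 change of at least 1 required, the day 18 against day 0 counts were 3 in WT, 2 in C14R and 3 in the deletion. With 1 library left out, the counts ranged from 0 to 1 for the deletion against WT at day 0, for C14R against WT at day 18 and for C14R against the deletion at day 0, and the calls gained were GFRA3, RET and GFRA3. Leaving out small RNA genes and rescaling moved the median change of all genes with day from 0.03 to 0.21 in WT, 0.02 to 0.18 in C14R and 0.03 to 0.23 in the deletion, and the share of calls that were higher from 52.9% to 68.7%, 52.0% to 66.4% and 52.8% to 69.5%. In the refits that tested them, NTRK2, RET, ALK, SORT1 and NTRK3 kept their calls and directions with day in all 3 constructs; NTRK3 and GFRA3 were not tested at a mean of at least 5 FPKM, and under the minimum log2 change of 1 NTRK3, SORT1 and, in C14R, ALK were not called. With array weights, NGFR in C14R was at 0.38 with day (adjusted p = 0.0014). The cause of these shifts was not tested beyond the construction of each refit.

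Residual correlations of same-numbered libraries ran from -0.363 to 0.168, and 4 of 27 pairs exceeded 0.1. Residuals about means of 3 libraries cannot show whether same-numbered samples were paired by design. With the replicate block, the counts of receptors called with day were 6 in WT, 6 in C14R and 7 in the deletion, and 0 in the other comparisons. Of the libraries, 7 of 27 correlated best with their own number. The estimated depth put GFRA3 at 16.9 fragments in its lowest library, and FPKM gives no level for separate transcript forms.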
